A study of Mus musculus with 42 samples.

Results

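Genes of synaptic vesicle and glutamate release were measured in mouse sensory ganglia. All mice were of the inbred BALB/c strain, under normal standard housing. The 10 genes were Slc17a6, Syp, Sv2a, Sv2b, Syn1, Syn2, Vamp1, Vamp2, Snap25 and Stx1a. Members were all probe sets that the platform annotation gives to exactly 1 of these symbols, a rule that uses no measured value. It found 8 of 12488 probe sets (6 genes) on the MG-U74Av2 array and 22 of 45101 (10 genes) on the Mouse430_2 array, 30 of 57589 in all. MG-U74Av2 had no such probe set for Slc17a6, Sv2a, Sv2b or Syn1, and 1 Mouse430_2 probe set that names Vamp1 beside a second gene was left out.

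The 6 groups came from the nodose ganglion (NG), which holds cell bodies of vagal sensory neurons, and the dorsal root ganglion (DRG), which holds those of spinal sensory neurons. Neurons cut out by laser capture microdissection, about 150 per sample, gave 11 NG and 9 DRG samples on Mouse430_2 and 5 NG and 5 DRG samples on MG-U74Av2. Whole ganglia gave 7 NG and 5 DRG samples on MG-U74Av2. Captured cells are named visceral sensory neurons in the labels; how they were recognised, and the age and sex of the mice, are not given in the sources used here. Although each sample is described as laser captured, the extraction text of the first experiment speaks of whole ganglia and was followed. Roughly 12 µg of RNA went into each labelling, called amplified RNA for the captured MG-U74Av2 samples and total RNA for all others. Whether the RNA of the captured Mouse430_2 samples had been amplified is not stated. The log2 ratio of the 3′ to the 5′ beta actin control was 4.88 to 6.15 in those samples. It was 5.28 to 6.20 in MG-U74Av2 captures and 2.26 to 3.44 in whole ganglia. No label ties samples of 1 group to separate animals, so a p-value reflects sample-to-sample spread that may be only technical. In RNA from many cells, fewer neurons with a transcript and less transcript per neuron cannot be told apart.

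A sensory neuron releases glutamate from vesicles in its terminals, and the transcripts for that machinery are read here in the cell bodies. The transporter encoded by Slc17a6 (VGLUT2) fills vesicles with glutamate, the proteins of Syp, Sv2a and Sv2b lie in the vesicle membrane, and the synapsins of Syn1 and Syn2 hold vesicles in reserve. Fusion is driven by SNARE proteins, of which Vamp1 and Vamp2 encode the vesicle side (synaptobrevins) and Snap25 and Stx1a (syntaxin 1A) the plasma membrane side.

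Array signals are intensities scaled so that all arrays of 1 type share the same trimmed mean. Differences are on the scale of log2(signal + pseudocount), as NG minus DRG or captured minus whole, which understates differences of dim probe sets. "Called" means an adjusted p under 0.05 in limma, over all probe sets tested. Before scaling, the trimmed means were 84.2 to 200.5 on Mouse430_2, 187.7 to 274.5 for MG-U74Av2 captures and 174.9 to 408.3 for whole ganglia. All 4 tested nodose markers (Phox2a, Tbx3, Htr3a and Ddc) were called higher and all 4 dorsal root ganglion markers (Hoxa9, Hoxd9, Prrxl1 and Runx1) lower in captured NG neurons on Mouse430_2. The pan-neuronal list overlapped there, with summed signals of 21530 to 28042 in NG neurons and 19247 to 31337 in DRG neurons. The 11 satellite glia and Schwann cell markers did not, with sums of 8043 to 9543 in NG neurons and 10425 to 13323 in DRG neurons. Gene by gene, 5 of 10 tested glial markers were called lower in NG neurons and 0 higher. S100b weighed heavily in the sum, with means of 1344 in NG and 3125 in DRG neurons, while Sox10 had 443 and 393. Summed glial signal thus moved with the ganglion, and the part of glial transcripts in the results below was not tested.

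In captured neurons on Mouse430_2, the clearest member difference was in the SV2 family: Sv2b was lower in NG neurons and Sv2a was higher. Vamp1, one Syn2 probe set and, marginally, Syp also passed the test, while both Slc17a6 probe sets, both Snap25, both Stx1a, both Vamp2 and the Syn1 probe set did not. In all, 6 of 21 tested member probe sets were called, which is 28.6% against 22.2% of all 28107 probe sets tested. Of these, 2 were higher and 4 lower in NG neurons, against 9.72% and 12.5% of all. The members' median difference was -0.10, and that of all tested probe sets -0.051. Of 22 member probe sets, the 1 that was too dim to test was Vamp1 1421862_a_at.

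**Figure D1:**
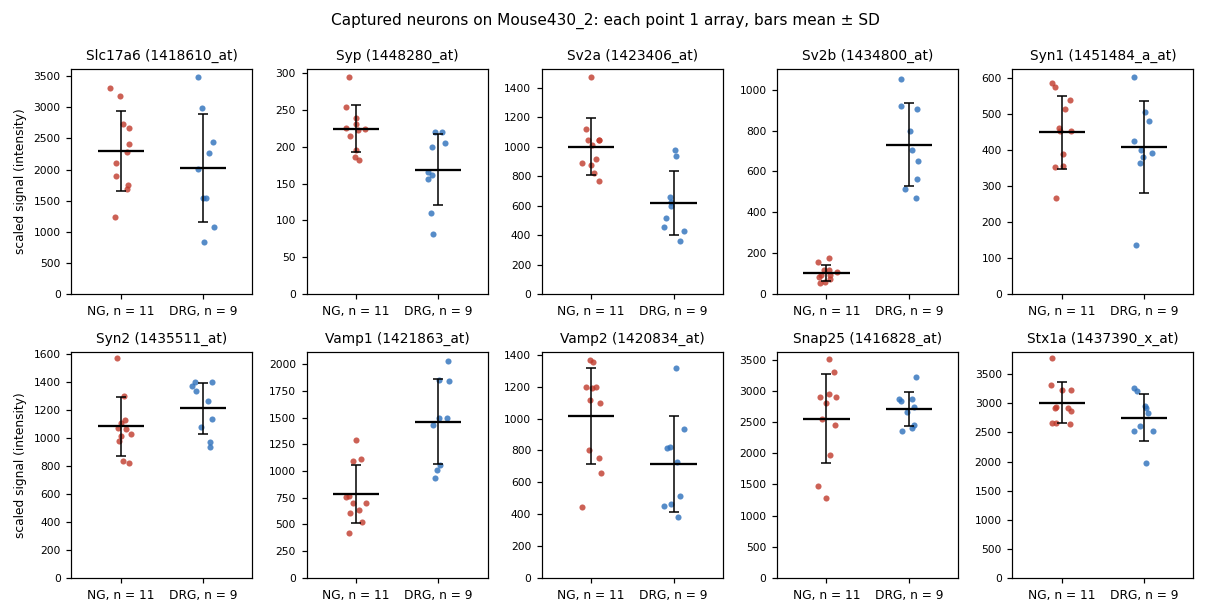
Scaled signal (intensity, linear axis from 0) of each of the 10 genes on its brightest Mouse430_2 probe set, 1 point per array, with NG neurons (n = 11) left of DRG neurons (n = 9); bars are mean ± SD. The Sv2b panel is the only one of these 10 in which the groups do not overlap, with NG arrays from 54.6 to 177 and DRG arrays from 468 to 1053.

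Sv2b encodes a glycoprotein of the vesicle membrane, and both of its probe sets separated the ganglia. On 1434800_at, NG neurons had 54.6 at the lowest, 94.7 at the median and 177 at the highest, against 468 at the lowest, 706 at the median and 1053 at the highest in DRG neurons. Every NG array lay below every DRG array. The means were 103 ± 38.3 in NG neurons and 731 ± 202 in DRG neurons (SD, n = 11 and 9), a log2 difference of -2.76 (SE 0.20, adjusted p = 2.61e-11), or 6.80-fold higher in DRG. The second probe set, 1435687_at, gave 52.1 at the lowest, 57.4 at the median and 90.6 at the highest in NG neurons and 242 at the lowest, 322 at the median and 432 at the highest in DRG neurons, again without overlap. Its log2 difference was -2.20 (SE 0.14, adjusted p = 5.50e-12). These were the 2 member probe sets without overlap of 21, against 3.84% of all tested. No alternative that was tried, including every left-out array, lost either call.

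Sv2a, the paralog that binds the antiepileptic drug levetiracetam, moved in the opposite direction. Its 1 probe set, 1423406_at, read 765 at the lowest, 1014 at the median and 1475 at the highest in NG neurons, against 360.1 at the lowest, 599 at the median and 981 at the highest in DRG neurons. The groups overlapped at the low NG and high DRG arrays. Means were 1002 ± 191 in NG neurons and 618 ± 216 in DRG neurons (SD), and the log2 difference was 0.74 (SE 0.16, adjusted p = 0.000962). Within 1 array, log2 Sv2a signal minus log2 Sv2b signal ran from 2.61 to 4.08 in NG neurons and from -0.88 to 0.86 in DRG neurons. The zero of that difference has no meaning, since the probe sets are different, but no NG array came down to the DRG range. Neither gene has a single-gene probe set on MG-U74Av2, so whole ganglia give no value for them.

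The promoter windows of Sv2a, Sv2b and Vamp1 are shown because these are the members called without exception or with 1 exception under the alternatives tried on Mouse430_2. Each is the 250 bases before the first annotated start, from RefSeq (GRCm38.p6), 5′ to 3′ on the strand of the gene, and capitals mark a motif found by searching both strands. Sv2a lies at chr3:96180977-96181226, plus strand, Sv2b at chr7:75309263-75309512, minus strand and Vamp1 at chr6:125215331-125215580, plus strand.
Sv2a: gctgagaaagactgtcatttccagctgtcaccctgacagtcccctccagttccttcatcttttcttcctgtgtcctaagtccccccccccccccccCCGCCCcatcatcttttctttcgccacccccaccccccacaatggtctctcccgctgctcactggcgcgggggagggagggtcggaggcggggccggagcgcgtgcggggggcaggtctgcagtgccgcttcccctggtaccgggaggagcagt
Sv2b: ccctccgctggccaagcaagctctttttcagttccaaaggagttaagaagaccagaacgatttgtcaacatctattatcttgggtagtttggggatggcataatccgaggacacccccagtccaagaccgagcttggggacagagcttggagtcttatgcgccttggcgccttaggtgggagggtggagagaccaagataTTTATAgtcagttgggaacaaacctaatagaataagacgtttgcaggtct
Vamp1: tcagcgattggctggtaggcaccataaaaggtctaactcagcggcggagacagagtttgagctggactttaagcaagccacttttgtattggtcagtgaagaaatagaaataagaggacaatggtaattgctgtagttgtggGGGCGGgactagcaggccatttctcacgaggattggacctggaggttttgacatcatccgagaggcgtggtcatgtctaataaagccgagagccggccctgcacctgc
The motifs searched were the GC box GGGCGG, the cAMP response element TGACGTCA, the TATA box TATAAA and the E-box CACGTG. The Sv2a window held 1 GC box, on the opposite strand, and a GC content of 66%. In the Sv2b window there was no GC box but 1 TATA box, on the opposite strand, at a GC content of 48.8%. Vamp1 had 1 GC box and 50.4% GC. Over 32851 RefSeq promoter windows of this length, 32.7% held a GC box, 12.4% a TATA box, 6.02% an E-box and 1.55% a cAMP response element. A match describes these letters and no binding. Windows were found for 8 of the 10 genes, and Snap25 and Vamp2 had none in the table.

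Syp encodes synaptophysin, an abundant tetraspan protein of the vesicle membrane. On 1448280_at it read 182 at the lowest, 224 at the median and 295 at the highest in NG neurons, against 81.7 at the lowest, 165 at the median and 219.8 at the highest in DRG neurons, with overlap. The log2 difference was 0.44 (SE 0.16, adjusted p = 0.0491), close to the threshold. That call was lost on leaving out 1 array in 13 of 20 cases (DRG 002, 003, 005, 011 or 015, or NG 001, 002, 003, 005, 007, 008, 012 or 015), with values of 0.33 to 0.45 and adjusted p up to 0.112 among those 13. It was also lost with the replicate block, at 0.55 (adjusted p = 0.141), with array weights, at 0.36 (adjusted p = 0.0919), and with no filter on dim probe sets (adjusted p = 0.072). The dim probe set 1456249_x_at was not called, at 0.17 (95% interval -0.52 to 0.85, adjusted p = 0.788).

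The synapsins Syn1 and Syn2 gave 1 called probe set of 7 between the captured groups. Syn1 on 1451484_a_at read 265 at the lowest, 452 at the median and 585 at the highest in NG neurons, against 135 at the lowest, 398 at the median and 601 at the highest in DRG neurons. Its log2 difference was 0.18 (95% interval -0.22 to 0.59, adjusted p = 0.569). The lowest DRG value belonged to 1 array, DRG 015, and the other 8 read 362 to 601. Syn2 has 6 probe sets, of which 1460230_at was called lower in NG neurons, at -0.64 (SE 0.21, adjusted p = 0.0277), with means of 647 ± 253 in NG neurons and 993 ± 303 in DRG neurons (SD). That call was lost on leaving out DRG 002, DRG 003, DRG 015 or NG 005, with values of -0.60 to -0.56 and adjusted p up to 0.0648. It was also lost with the replicate block, at -0.63 (adjusted p = 0.143), and under same-median scaling, at -0.49 (adjusted p = 0.178). The other 5 were not called. Of these, 1458105_at had the furthest difference, -0.71 (95% interval -1.26 to -0.16, adjusted p = 0.057), and passed the threshold without DRG 010, NG 005, NG 010 or NG 014 (values of -0.84 to -0.76, adjusted p of 0.0142 to 0.0465), with array weights (adjusted p = 0.0248) and with the actin covariate (adjusted p = 0.0414). The brightest of the 5, 1435511_at, differed by -0.17 (95% interval -0.41 to 0.074, adjusted p = 0.351). With all arrays in the main fit, all 6 had negative differences, from -0.71 to -0.079. Some alternatives gave positive values. For 1428460_at it was 0.073 under same-median scaling. On arrays whose sample number was not used on MG-U74Av2, 1440762_at was 0.14, and on those whose number was, 1449030_at was 0.065. Single left-out arrays also turned 1428460_at and 1440762_at positive.

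Vamp1 and Vamp2 encode synaptobrevins 1 and 2. Vamp1 on 1421863_at read 423 at the lowest, 699 at the median and 1295 at the highest in NG neurons, against 935 at the lowest, 1501 at the median and 2032 at the highest in DRG neurons. The groups overlapped between 935.1 and 1295. Means were 783 ± 272 in NG neurons and 1462 ± 399 in DRG neurons (SD), a log2 difference of -0.92 (SE 0.18, adjusted p = 0.000458), and no alternative tried lost that call. Vamp2 on 1420834_at read 446 at the lowest, 1118 at the median and 1366 at the highest in NG neurons, against 381 at the lowest, 729.6 at the median and 1316 at the highest in DRG neurons. Its difference, 0.54 (95% interval 0.097 to 0.98, adjusted p = 0.075), missed the threshold, as did that of 1420833_at, 0.44 (95% interval -0.034 to 0.91, adjusted p = 0.19). Leaving out DRG 006 or NG 010 brought 1420834_at past it, at 0.66 (adjusted p = 0.0224) and 0.65 (adjusted p = 0.0175). So did the actin covariate, at 0.59 (adjusted p = 0.0405), and same-median scaling, at 0.69 (adjusted p = 0.0432).

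Of the plasma membrane SNARE genes among the 10, neither Snap25 nor Stx1a was called in captured neurons. Snap25 on 1416828_at read 1277 at the lowest, 2817 at the median and 3510.3 at the highest in NG neurons, against 2354 at the lowest, 2745 at the median and 3226 at the highest in DRG neurons. Its log2 difference was -0.14 (95% interval -0.45 to 0.16, adjusted p = 0.556), and that of 1447763_at was -0.10 (95% interval -0.48 to 0.28, adjusted p = 0.767). Stx1a on 1437390_x_at read 2645 at the lowest, 2918 at the median and 3785 at the highest in NG neurons, against 1975 at the lowest, 2829 at the median and 3259.6 at the highest in DRG neurons. Its difference was 0.13 (95% interval -0.052 to 0.32, adjusted p = 0.328), and 1448366_at gave 0.22 (95% interval -0.11 to 0.54, adjusted p = 0.365). All 4 intervals included 0 and none reached a 2-fold difference in either direction.

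**Figure D2:**
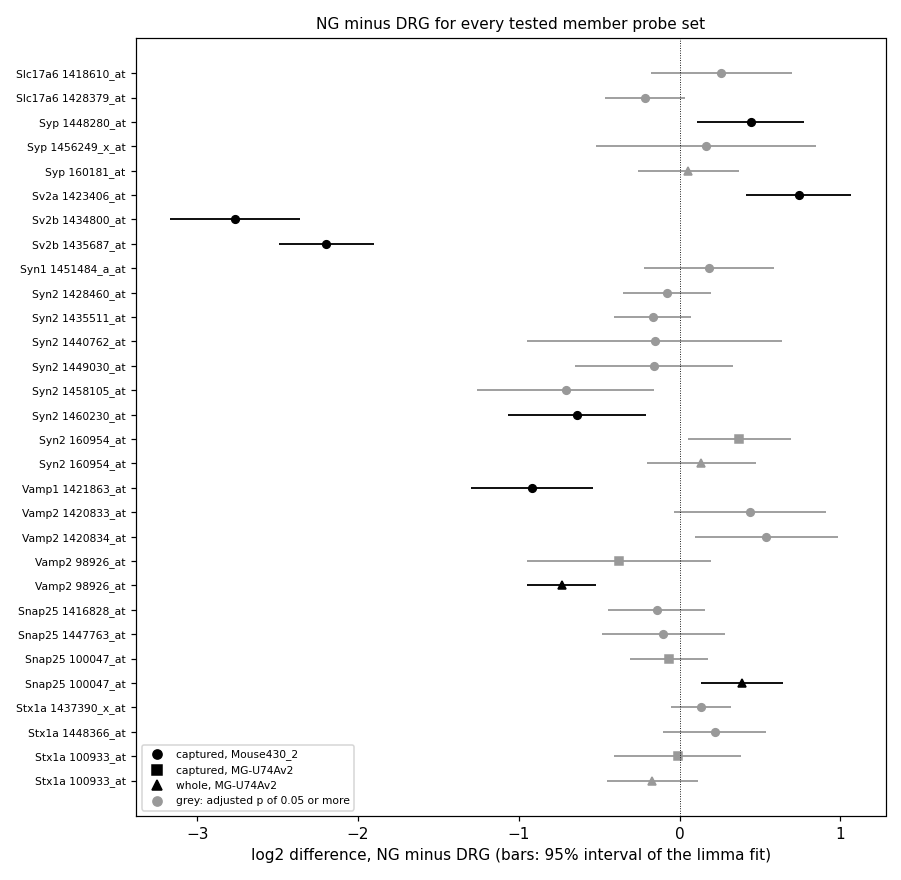
Log2 difference, NG minus DRG, of every tested member probe set (horizontal axis, points), with the 95% interval of the limma fit (bars), ordered by role. Circles are captured neurons on Mouse430_2, squares captured neurons on MG-U74Av2 and triangles whole ganglia; black marks an adjusted p under 0.05. The 2 Sv2b probe sets stand at -2.76 and -2.20, and all others lie between -0.92 and 0.74.

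Slc17a6, the vesicular glutamate transporter gene, was bright in both ganglia. On 1418610_at, NG neurons had 1230.1 at the lowest, 2284 at the median and 3308 at the highest, against 837 at the lowest, 2009.6 at the median and 3486 at the highest in DRG neurons. The difference was 0.26 (95% interval -0.18 to 0.70, adjusted p = 0.44). The second probe set, 1428379_at, gave 1339 at the lowest, 1761 at the median and 2744 at the highest in NG neurons and 1716 at the lowest, 2059 at the median and 2868 at the highest in DRG neurons, a difference of -0.21 (95% interval -0.46 to 0.036, adjusted p = 0.233). Both were uncalled, with opposite signs.

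The Slc17a6 value depended on which samples were read. Of the Mouse430_2 arrays, 5 NG and 5 DRG carry a sample number also used on MG-U74Av2, and 6 NG and 4 DRG carry a new number. Each of the 10 captured MG-U74Av2 arrays was set against the Mouse430_2 arrays of its own ganglion, by deviations from group means. All 10 correlated best with the array of their own number (r of 0.204 to 0.468), so the 2 captured experiments are not independent. Arrays of the other ganglion were not compared. Among new numbers, 1418610_at read 1230.1 at the lowest, 1827 at the median and 2724 at the highest in NG neurons, against 2258, 2446, 2988 and 3486 in DRG neurons. Among shared numbers it read 2112, 2284, 2412, 3183 and 3308 in NG neurons, against 837, 1079.7, 1543, 1548 and 2009.6 in DRG neurons, with no overlap. In separate fits the log2 difference was -0.52 among new numbers (adjusted p = 0.103) and 0.96 among shared numbers (adjusted p = 0.00354). The other probe set, 1428379_at, differed by -0.66 among new numbers (adjusted p = 0.00193) and by 0.22 among shared numbers (adjusted p = 0.283).

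A fit with all 4 sets of arrays tested the difference itself, new minus shared numbers; it was added after the split had been seen. It called 3 of 21 member probe sets, against 2.43% of all tested, and these were both of Slc17a6 and 1 of Vamp2. The values were -1.48 for 1418610_at (SE 0.31, adjusted p = 0.0112), -0.88 for 1428379_at (SE 0.17, adjusted p = 0.00703) and 1.56 for Vamp2 1420834_at (SE 0.31, adjusted p = 0.00745). Vamp2 1420834_at read 754 at the lowest, 1198 at the median and 1366 at the highest in NG neurons with new numbers, against 381, 453, 460.4 and 513 in DRG neurons, without overlap. With shared numbers it read 446, 658, 804, 1094 and 1118 in NG neurons, against 729.6, 814, 822, 935 and 1316 in DRG neurons, and these overlapped. So its difference was 1.35 among new numbers (adjusted p = 9.01e-05) and -0.21 among shared numbers (adjusted p = 0.613). The log2 ratio of the 3′ to the 5′ beta actin control, which rises with RNA shortening, was 4.88 to 5.80 in NG arrays with new numbers and 5.82 to 6.15 in NG arrays with shared numbers. In DRG arrays it was 5.08 to 5.95 with new numbers and 5.33 to 5.89 with shared numbers. Its part in the set difference was not tested.

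The called members stood differently under the same split. Sv2b was called in both sets, at -2.67 among new and -2.92 among shared numbers on 1434800_at. Vamp1 was called in both, at -0.75 (adjusted p = 0.0234) and -1.12 (adjusted p = 0.00512). Sv2a was called among shared numbers, at 1.07 (adjusted p = 0.000786), and not among new ones, at 0.34 (adjusted p = 0.25). Conversely, Syp 1448280_at and Syn2 1460230_at were called among new numbers, at 0.85 (adjusted p = 0.0214) and -1.09 (adjusted p = 0.00827), and not among shared ones, at 0.095 and -0.17 (adjusted p = 0.781 and 0.718). For none of these 5 probe sets did the test of the set difference reach an adjusted p under 0.05; the values were 0.827 for Sv2b, 0.702 for Vamp1, 0.16 for Sv2a, 0.166 for Syp and 0.231 for Syn2.

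**Figure D3:**
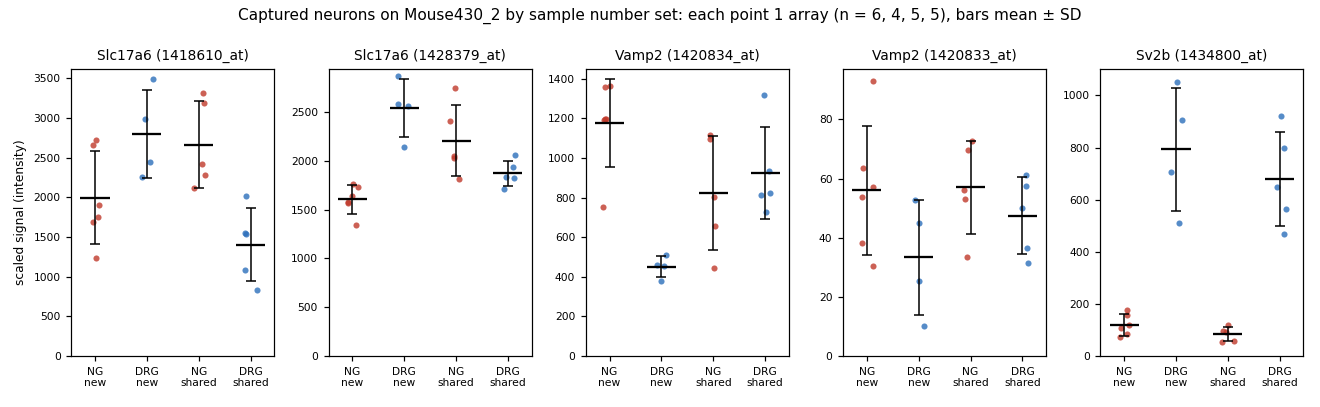
Scaled signal (intensity, linear axis from 0) on Mouse430_2 of both Slc17a6 and both Vamp2 probe sets and of Sv2b, 1 point per array, split by whether the sample number was new (left pair, NG n = 6, DRG n = 4) or shared with MG-U74Av2 (right pair, n = 5 each); bars are mean ± SD. For Slc17a6 1418610_at the DRG arrays read 2258 to 3486 with new numbers and 837 to 2010 with shared numbers, while Sv2b keeps NG below DRG in both sets.

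On MG-U74Av2, captured neurons gave no called member. Marker sums did not overlap there. Pan-neuronal sums were 32759 to 37763 in NG and 28558 to 31033 in DRG neurons, and glial sums 4833 to 5851 and 7294 to 8995. Of 9 tested pan-neuronal markers 1 was called higher and 1 lower in NG neurons, and of 9 glial markers 0 and 3. Their part was not tested. Of 8 member probe sets, 4 were tested and 0 were called in limma, against 21.8% of 7583 tested. Among the 4, 1 had an unadjusted p under 0.05. That 1 was Syn2 160954_at, at 128, 133, 147, 167 and 188 in NG neurons, against 105, 112, 116, 118 and 122 in DRG neurons. All 5 NG values lay above all 5 DRG values, a pattern seen in 16.3% of tested probe sets. Its log2 difference was 0.37 (95% interval 0.051 to 0.69, adjusted p = 0.0919), opposite in sign to all 6 Syn2 probe sets on the other array type. Snap25 100047_at read 3157, 3795, 4130.0, 4400.4 and 4676 in NG neurons, against 3658, 4028, 4077, 4454 and 4763 in DRG neurons, a difference of -0.065 (95% interval -0.31 to 0.18, adjusted p = 0.728). Stx1a 100933_at differed by -0.011 (95% interval -0.41 to 0.38, adjusted p = 0.978). Vamp2 98926_at read 509, 1055, 1325, 1518 and 1819 in NG neurons, against 1198, 1363, 1467, 1652 and 1863 in DRG neurons. Its difference was -0.38 (95% interval -0.95 to 0.19, adjusted p = 0.344), and the lowest NG value came from sample 010. With the actin 3′ to 5′ ratio as a covariate it was 0.14, so its sign is not settled. That log2 ratio was 5.58 to 6.20 in these NG samples and 5.28 to 5.66 in these DRG samples. RNA shortening and ganglion are thus largely confounded here, and the covariate cannot separate them well. With it, calls over all probe sets went from 792 higher and 860 lower to 351 and 488. Vamp1 was dim: on 93653_r_at it read 7.00, 8.15, 9.40, 15.3 and 28.5 in NG neurons, against 26.9, 27.9, 33.0, 36.5 and 43.6 in DRG neurons. Without the filter on dim probe sets that difference was -0.90 (adjusted p = 0.0235) and that of 93652_i_at -0.83 (adjusted p = 0.102), the same sign as on Mouse430_2 but near background. In whole ganglia, also without the filter, the signs were opposite and neither was called. There 93653_r_at differed by 0.52 (adjusted p = 0.132) and 93652_i_at by -0.41 (adjusted p = 0.218).

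Whole ganglia were compared on the same 8 probe sets, of which 5 were tested and 2 were called, against 35.4% of 7698 tested. There was 1 higher and 1 lower in NG, against 19.6% and 15.8% of all. Vamp2 was lower in whole NG. Its brighter probe set, 98926_at, read 1253 at the lowest, 1709 at the median and 1875 at the highest in whole NG, against 2409.8, 2706, 2861, 2926 and 3038 in whole DRG. All 7 NG arrays lay below all 5 DRG arrays, as for 18.1% of probe sets in either direction. The difference was -0.73 (SE 0.10, adjusted p = 2.36e-05). Snap25 was higher in whole NG, with 4645 at the lowest, 7348 at the median and 7935 at the highest in NG, against 4587, 4737, 5282, 5473 and 5718 in DRG, and the groups overlapped. Its difference was 0.39 (SE 0.12, adjusted p = 0.0189). That call was lost without DRG sample 026, at 0.35 (adjusted p = 0.058), and when arrays were given the same median, at 0.28 (adjusted p = 0.146). Syp 160181_at differed by 0.055 (95% interval -0.26 to 0.37, adjusted p = 0.813), Syn2 by 0.13 (95% interval -0.20 to 0.47, adjusted p = 0.562) and Stx1a by -0.17 (95% interval -0.45 to 0.11, adjusted p = 0.354). Markers of other cells also moved here: 5 of 6 tested endothelial genes were called higher in whole NG, with sums of 1178 to 1893 in NG and 742 to 973 in DRG. Of 4 tested skeletal muscle and blood genes, 2 were called higher and 0 lower, with log2 differences of 0.41 to 3.08. Sums over the 5 such genes on the array were 645 to 4232 in NG and 432 to 763 in DRG, with overlap. Of 9 tested glial markers 0 were called higher and 2 lower, and of 4 macrophage markers 1 and 0. The part of these cells was not tested.

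Captured neurons were then set against whole ganglia in a joint fit of the 4 groups on MG-U74Av2. Capture, RNA amplification and array run cannot be told apart in this comparison: the actin 3′ to 5′ log2 ratio was 5.28 to 6.20 in captured samples and 2.26 to 3.44 in whole ganglia. In NG, 3 of 5 tested members were called, against 55.3% of 8309 probe sets, and all 3 were lower in captured neurons, as were 29.2% of all. In DRG, 2 of 5 were called, against 47.2%, and both were lower, as were 24.3% of all. Syp was the furthest apart. It read 18.3, 23.2, 28.3, 29.3 and 35.8 in captured NG neurons, against 125 at the lowest, 224 at the median and 268 at the highest in whole NG. In captured DRG neurons it read 18.6, 33.0, 33.5, 40.2 and 40.2, against 187, 191, 200.4, 204 and 227 in whole DRG. No captured value reached any whole one, and 8 of the 10 captured values fell under the level used to filter dim probe sets. This probe set was thus tested only because it was bright in whole ganglia, so its p-values and lack of overlap are not separate support. Its mean array percentile was 34.5 in captured NG and 37.2 in captured DRG neurons. On Mouse430_2, Syp 1448280_at stood at 82.7 in captured NG and 78.3 in captured DRG neurons, so the low reading belongs to 160181_at. The differences of 160181_at, captured minus whole, were -2.54 (SE 0.17, adjusted p = 4.21e-12) in NG and -2.29 (SE 0.18, adjusted p = 2.64e-10) in DRG. Summed glial signal was lower as well. The 9 glial markers summed to 4833 to 5851 in captured NG against 9330 to 11126 in whole NG. In DRG they summed to 7294 to 8995 in captured neurons against 10561 to 13183 in whole ganglia. Gene by gene these markers were mixed: 1 was called higher and 7 lower in captured NG, 2 higher and 4 lower in captured DRG. Pan-neuronal markers were mixed too: of 9 tested, 5 were called higher and 4 lower in NG, 3 higher and 4 lower in DRG. In NG the 7 endothelial markers were apart too, with sums of 569 to 894 in captured NG against 1178 to 1893 in whole NG, as were the 7 macrophage markers, with 163 to 280 against 314 to 437. In DRG those sums overlapped, with 667 to 916 in captured against 742 to 973 in whole DRG for endothelial and 188 to 254 against 192 to 317 for macrophage markers. Of 6 tested endothelial markers in NG, 1 was called higher and 3 lower after capture, and of 4 macrophage markers 0 and 2. The part of these cells was not tested.

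Vamp2 98926_at was also lower after capture, by a log2 difference of -0.54 (SE 0.19, adjusted p = 0.0215) in NG and -0.89 (SE 0.21, adjusted p = 0.00102) in DRG. The NG call was lost without captured NG sample 010, at -0.25 (adjusted p = 0.124), and under same-median scaling, at -0.36 (adjusted p = 0.115). In DRG all 5 captured values lay below all 5 whole values, as for Syp; 37.3% of probe sets had no overlap in DRG and 28.1% in NG. Snap25 differed by -0.75 (SE 0.12, adjusted p = 7.07e-06) in NG and by -0.30 (SE 0.13, adjusted p = 0.0583) in DRG. The DRG value passed the threshold without captured DRG 014, captured NG 007, whole DRG 026 or whole NG 039, with adjusted p of 0.0244 to 0.0476. After quantile normalization it was -0.51 (adjusted p = 0.00022). Syn2 and Stx1a were called in neither ganglion, with differences of 0.12 and -0.14 in NG and -0.12 and -0.30 in DRG. Stx1a was called in DRG without captured DRG 006, at -0.41 (adjusted p = 0.0413), and with array weights, at -0.32 (adjusted p = 0.0475).

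The interaction asks whether the ganglion difference itself changed between captured and whole samples. Of 5 tested members, 0 were called in limma, against 18.2% of probe sets, and 1, Snap25, had an unadjusted p under 0.05. Snap25 gave -0.45 (95% interval -0.81 to -0.094, adjusted p = 0.0725), and Vamp2 0.36 (95% interval -0.23 to 0.95, adjusted p = 0.426). Each was called on leaving out single samples: Snap25 without captured NG 010, whole NG 039 or whole NG 073, at -0.54 to -0.50 with adjusted p of 0.0114 to 0.0468, and Vamp2 without captured NG 010, at 0.65 (adjusted p = 0.0192). A value called in whole ganglia and not in captured neurons is therefore not shown to differ between them.

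**Figure D4:**
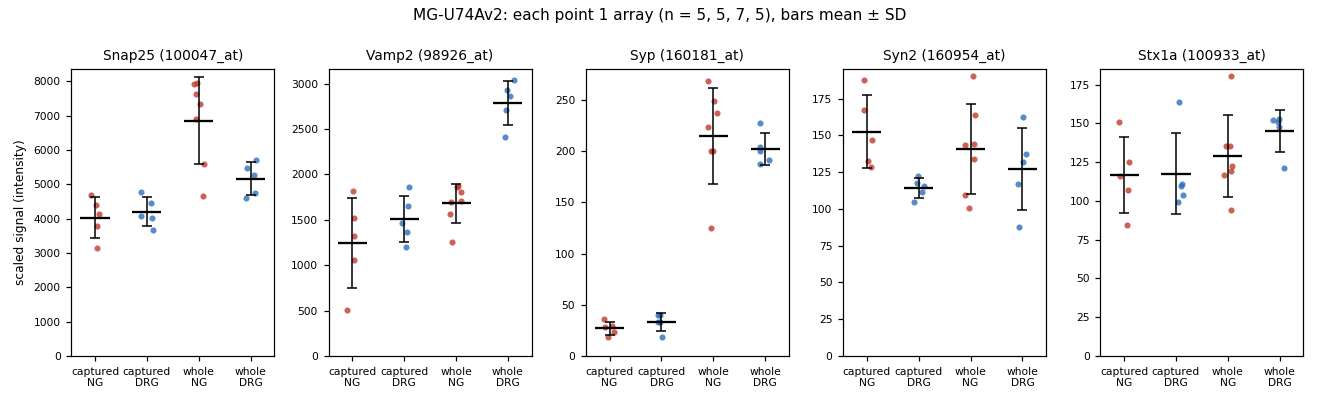
Scaled signal (intensity, linear axis from 0) of the 5 tested members on MG-U74Av2, 1 point per array, in captured NG (n = 5), captured DRG (n = 5), whole NG (n = 7) and whole DRG (n = 5); bars are mean ± SD. Syp stands at 18.3 to 40.2 in captured neurons and 125 to 268 in whole ganglia, and whole DRG is the highest group for Vamp2.

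Other genes of the release cycle were read from 5 lists, 1 probe set per gene, the brightest tested. The shares of all probe sets given beside them count every tested probe set, also dimmer ones, so these shares are not alike. In captured neurons on Mouse430_2, 84 of these genes were tested, and 20 were called higher and 15 lower in NG neurons, 41.7% against 22.2% of all probe sets; their median difference was 0.11, and that of all probe sets -0.051. Among other genes of vesicle proteins and their proton pump, 6 of 18 were called higher and 0 lower, against 9.72% and 12.5% of all probe sets. On MG-U74Av2 the same list gave 2 of 12 higher and 1 lower in captured neurons, and 2 of 12 higher and 1 lower in whole ganglia, the lower one being Sypl in both. Syn3, the third synapsin, differed by 1.60 (SE 0.20, adjusted p = 8.77e-07), with 346 ± 107 in NG neurons and 108 ± 33.5 in DRG neurons (SD), without overlap. Sv2c, the third SV2 paralog, differed by 1.35 (SE 0.27, adjusted p = 0.000441), so that Sv2a and Sv2c were higher and Sv2b lower in NG neurons. The Sv2c call was lost under 1 of 11 alternatives (adjusted p = 0.122). Atp6v1b2, a subunit of the vesicular proton pump, differed by 0.61 (SE 0.088, adjusted p = 7.52e-06).

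Active zone and priming genes went both ways, with 5 of 23 called higher and 8 lower. The lowest in NG neurons were Lin7a, a scaffold gene, at -2.37 (SE 0.24, adjusted p = 1.52e-08), and the Rab effector and Rab genes Rph3a (rabphilin), at -1.77 (SE 0.19, adjusted p = 8.96e-08), and Rab27b, at -1.84 (SE 0.31, adjusted p = 4.80e-05). Lin7a read 108 ± 52.6 in NG neurons and 541 ± 111 in DRG neurons (SD), without overlap. Among those higher were Rab3b, a vesicle Rab, at 1.15 (SE 0.27, adjusted p = 0.00202), Bsn (bassoon), at 0.81 (SE 0.27, adjusted p = 0.0327), and Apba1 (Mint1), at 0.77 (SE 0.16, adjusted p = 0.000553). The Bsn call was lost in 9 of 20 fits with 1 array left out, with adjusted p up to 0.0756, and in both sample number sets alone. Of 16 other SNARE genes, 3 were called higher and 3 lower. Cplx2 (complexin 2), which binds the assembled SNARE complex, was the lowest, at -1.72 (SE 0.24, adjusted p = 3.63e-06), with 538 ± 224 in NG neurons and 1806 ± 846 in DRG neurons (SD), without overlap. Nsf, the ATPase that takes SNARE complexes apart, differed by -0.71 (SE 0.12, adjusted p = 9.11e-05), and Vamp7 by -0.91 (SE 0.24, adjusted p = 0.00685). Higher were the syntaxin genes Stx4a, at 0.67 (SE 0.15, adjusted p = 0.00199), and Stx2, at 0.60 (SE 0.12, adjusted p = 0.000378), and Vamp3, at 0.37 (SE 0.12, adjusted p = 0.0233), a call lost without DRG 011 or DRG 014. Other alternatives ended the calls of Stx4a and Vamp3 in 2 of 11 fits each and of Vamp7 in 2 of 10. Those of Rab27b and Apba1 were lost in 1 of 11 each.

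For transmitter loading and glutamate supply, 10 genes were tested, 2 called higher and 1 lower. Slc18a2 (VMAT2), which loads monoamines, differed by 0.74 (SE 0.24, adjusted p = 0.0249), and Got2, a mitochondrial aspartate aminotransferase, by 0.51 (SE 0.095, adjusted p = 0.000189). Slc38a2, a neutral amino acid transporter gene, was lower at -0.53 (SE 0.13, adjusted p = 0.00273). In vesicle endocytosis 4 of 17 were higher and 3 lower. The endophilin genes Sh3gl1 and Sh3gl2 differed by 0.89 (SE 0.25, adjusted p = 0.00922) and 0.87 (SE 0.14, adjusted p = 4.49e-05), and Ap2m1, a clathrin adaptor subunit, by 0.69 (SE 0.12, adjusted p = 9.39e-05). Lower were Ap2a1, at -0.42 (SE 0.15, adjusted p = 0.0455), Cltb, at -0.36 (SE 0.11, adjusted p = 0.0236), and Dnm3, at -0.36 (SE 0.13, adjusted p = 0.0412). With 1 array left out, the Ap2a1 call was lost in 16 of 20 fits that of Dnm3 in 11 of 20 and that of Cltb without DRG 002 or DRG 011. Other alternatives ended it in 7 of 11 for Ap2a1, 5 of 11 for Dnm3 and 3 of 11 for Cltb, so none of these 3 is settled. They also ended the Sh3gl1 call in 3 of 11, with adjusted p up to 0.12. The calls of Slc18a2 and Slc38a2 were lost in 2 of 11 each, with adjusted p up to 0.31 and 0.227.

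**Figure D5:**
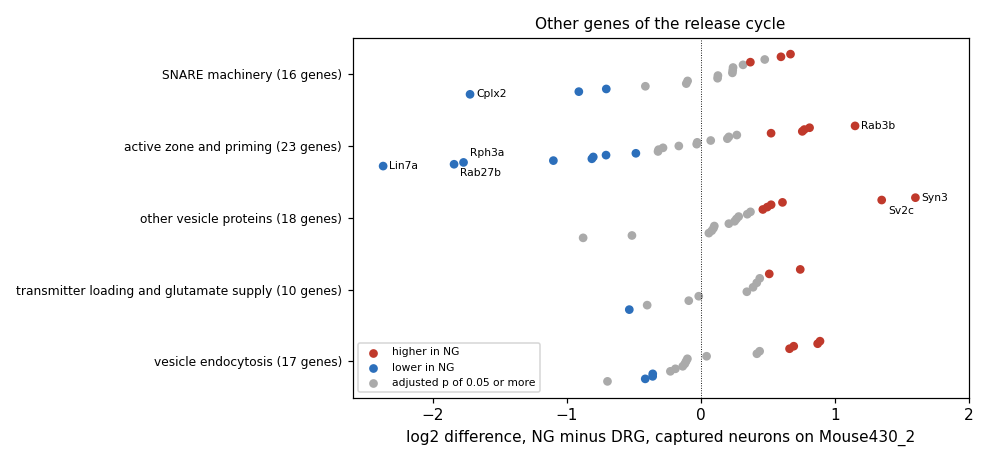
Log2 difference, NG minus DRG, of the 84 other release-cycle genes in captured neurons on Mouse430_2 (horizontal axis), 1 point per gene, grouped by list; red is higher and blue lower in NG neurons at an adjusted p under 0.05, grey is not called. Names are given for differences beyond 1 among the genes named by rule; the list of other vesicle proteins has 6 red and 0 blue points, while active zone genes reach from -2.37 to 1.15.

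On MG-U74Av2 the same lists gave 45 tested genes in captured neurons, 4 called higher and 5 lower in NG neurons (20%, against 21.8% of all probe sets). In whole ganglia 46 were tested, 9 called higher and 8 lower (37%, against 35.4%). Ap2m1 and Slc38a2 had the same sign as on Mouse430_2 in both: Ap2m1 differed by 0.50 (SE 0.12, adjusted p = 0.00823) in captured neurons and 1.13 (SE 0.10, adjusted p = 2.44e-07) in whole ganglia, and Slc38a2 by -0.97 (SE 0.15, adjusted p = 0.000393) and -0.77 (SE 0.13, adjusted p = 0.000166). The Ap2m1 call in captured neurons on MG-U74Av2 was lost under 2 of 9 alternatives, with adjusted p up to 0.0969. Nsf was lower in whole NG, at -1.60 (SE 0.15, adjusted p = 2.17e-07), and was not called in captured neurons on MG-U74Av2, at 0.0087 (SE 0.28, adjusted p = 0.989).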

How the data were processed

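RNA of mouse sensory ganglia was hybridised to Affymetrix arrays, 1 sample per array, 42 arrays in 6 groups taken from the sample titles. The authors deposited linear intensities, 1 for each probe set, computed with MAS5 per the submitters' processing notes. Detection calls were not used here, and dim signals can be background. Names came from the platform annotation, and only from probe sets with 1 symbol (10855 on MG-U74Av2 and 34958 on Mouse430_2; 396 and 932 had several and 1237 and 9211 had none).

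Each array was scaled to the 2% trimmed mean shared by its array type (253 on MG-U74Av2, 141 on Mouse430_2). Before taking log2, a pseudocount equal to the 20th percentile within the fit was added (11.7 for whole ganglia, 11.0 and 7.48 for captured neurons on MG-U74Av2 and Mouse430_2, 11.4 for the joint fit). Probe sets above the 40th percentile of their own array on at least 5 arrays (9 on Mouse430_2) were tested with limma 3.58.1 (trend, robust) in R 4.3.3, with data.table (version 1.17.8), two-sided, and adjusted by Benjamini-Hochberg over all probe sets tested, at 0.05. Each experiment was fitted alone; captured against whole and the interaction came from 1 joint fit.

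The fit was tested on simulated data: at a log2 difference of 1 it recovered 73% of changed probe sets on Mouse430_2 (27540 simulated), 79% in captured neurons (7438) and 95% in whole ganglia (7618) on MG-U74Av2. Each rate rests on 100 changed probe sets, drawn from the brighter ones and given independent normal noise. Calls of unchanged probe sets numbered 17 on Mouse430_2, and 11 in captured neurons and 20 in whole ganglia on MG-U74Av2. The number of arrays limits the precision.

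The members and lists were chosen with earlier results of these data known. All members are named; where 1 value stands for a gene, its brightest probe set in the fit is used. From each other list, up to 3 called genes per direction with the largest differences are named. Alternatives changed the scaling, pseudocount, filter, weights, covariate, replicate block and samples. The split by sample number set was partly planned (new numbers alone); the fit of shared numbers, the set as a block and the test of the set difference were added after seeing the data. Promoter windows came from RefSeq, GRCm38.p6.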

Additional observations from a re-analysis of the deposited data

Results flagged for a closer look

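Among member values, 4 of 39 groups tested had 1 array far from the others by Dixon's test, which flags about 5% of groups by chance. Syp 160181_at read 125 in whole NG sample 046, the lowest, while the other 6 read 199.8 to 268. Stx1a 100933_at read 121 in whole DRG sample 084, the lowest, while the other 4 read 148 to 153. The same probe set read 164 in captured DRG sample 006 on MG-U74Av2, the highest, while the other 4 read 99.3 to 111. Syn1 1451484_a_at read 135 in captured DRG sample 015 on Mouse430_2, the lowest, while the other 8 read 362 to 601.

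No member was called in the interaction, but 9 other release-cycle genes on MG-U74Av2 had a ganglion difference (NG minus DRG) that was called different between captured and whole samples in the joint limma fit. The captured-minus-whole value was 1.61 for Nsf (adjusted p = 0.000829), whose ganglion difference was 0.0087 in captured and -1.60 in whole samples. For Pacsin1 it was 1.17 (adjusted p = 6.75e-05), with 0.26 in captured and -0.91 in whole samples. For Ap2a2 it was -1.38 (adjusted p = 0.000358), with -0.64 in captured and 0.74 in whole samples. For Napa it was -0.91 (adjusted p = 0.00132), with -0.71 in captured and 0.20 in whole samples. The other values were 0.74 for Sncb, 0.63 for Itsn1, 0.53 for Napb, 0.43 for Atp6v1a and -0.62 for Ap2m1, with adjusted p of 0.00634 to 0.0454. With 1 array left out, the call was lost in 16 of 22 fits for Itsn1, 14 of 22 for Atp6v1a and 12 of 22 for Napb, with adjusted p up to 0.0971, and no filter on dim probe sets ended all 3. Capture and amplification cannot be told apart in these differences.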

How the results depend on the processing

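Under the alternatives, 1162 member differences kept their sign and their side of the threshold, 30 changed sign, 26 passed and 29 lost it. For the other release-cycle genes named, 2503 differences kept both, 178 lost their call and 1 changed sign. The count of called members moved from 2 to 1 in whole ganglia when arrays had the same median, and to 1 or 2 when 1 array was left out. On MG-U74Av2 captures it moved from 0 to 1 with no filter on dim probe sets (Vamp1 93653_r_at). In the interaction it moved from 0 to 1 with array weights or quantile normalization (Snap25) and with no filter (Vamp1 93653_r_at), and was 0 to 2 with 1 array left out. For captured minus whole in DRG, 2 became up to 4, without captured DRG 014, and otherwise stayed at 2 or 3. The causes were not tested.

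The member differences that changed sign were all uncalled as reported. On Mouse430_2, NG minus DRG, fitting new sample numbers alone gave -0.52 for Slc17a6 1418610_at and 0.14 for Syn2 1440762_at. Shared numbers alone gave 0.22 for Slc17a6 1428379_at, 0.18 and 0.11 for Snap25 1416828_at and 1447763_at, -0.087 for Stx1a 1448366_at, -0.15 for Syn1, 0.065 for Syn2 1449030_at, -0.39 for Syp 1456249_x_at and -0.21 for Vamp2 1420834_at; a called gene, Dnm3, also changed sign, to 0.082. The same median gave 0.010 and 0.048 for Snap25 1416828_at and 1447763_at and 0.073 for Syn2 1428460_at. With 1 array left out, Syn2 1428460_at ran from -0.13 to 0.0027 and Syn2 1440762_at from -0.31 to 0.045. On MG-U74Av2, Stx1a in captured neurons was 0.013 with array weights, 7.25e-05 with the actin covariate, 0.077 with the replicate block and 0.0027 with the same median, and -0.10 to 0.11 with 1 array left out. There Snap25 was 0.043 with the replicate block and -0.12 to 0.020 with 1 array left out, and Vamp2 98926_at was 0.14 with the actin covariate. For captured minus whole in NG, Stx1a was 0.032 after quantile normalization and 0.024 with the same median. In whole ganglia Syp was -0.016 after quantile normalization, -0.050 with the same median and -0.0013 to 0.17 with 1 array left out.

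Scaling to the same median moved the median of all probe sets from -0.051 to 0.085 on Mouse430_2, and its calls from 2733 higher and 3517 lower to 3845 and 2210; quantile normalization gave 3203 and 3226. In whole ganglia 1508 and 1219 became 1020 and 1532, or 1339 and 1347 after quantile normalization. For captured minus whole in NG, 2175 and 2424 became 3008 and 1929, or 2670 and 2219, with medians of 0.17 and 0.10. In DRG 1903 and 2017 became 2147 and 1851, or 2170 and 1919. For the interaction 641 and 871 became 927 and 620.

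Deviations of same-numbered NG and DRG samples from their group means correlated weakly. On MG-U74Av2 r was -0.11 to 0.11 over 4 numbers, and on Mouse430_2 -0.15 to 0.16 over 7. Such correlations between different ganglia cannot show whether a shared number marks the same animals. A replicate block kept only arrays whose number occurs in both ganglia, so it used fewer arrays. It gave 0 of 4 and 4 of 21 called members, ending the calls of Syp 1448280_at and Syn2 1460230_at. The part of the smaller number of arrays in these losses was not tested. Over all probe sets the block gave 465 higher and 591 lower, and 1708 and 2317. In each experiment 1 sample correlated best with its own number. No paired analysis was possible in whole ganglia because the ganglia share 1 number. Depth is not recorded for arrays; 5 member probe sets were too dim to test in at least 1 experiment.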
